A study of Mus musculus with 12 samples.

Results

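Calcium that enters a cardiac muscle cell at each beat has to leave it again before the next, and the genes described here encode the proteins of the surface membrane that carry it out. They were 9 genes of the 51826 entries in the count table, chosen by name: the sodium-calcium exchangers Slc8a1, Slc8a2 and Slc8a3, the potassium-dependent sodium-calcium exchangers Slc24a2 and Slc24a3, and the plasma membrane calcium pumps Atp2b1, Atp2b2, Atp2b3 and Atp2b4. The study modelled myotonic dystrophy type 1, a disease of expanded CUG repeat RNA, in FvB mice in which doxycycline switches on a human DMPK transcript with 960 CUG repeats. RNA-Seq covered atria and ventricles of 3 CUG960 +dox mice (V119, V120 and V123, homozygous for the TREDT960I repeat transgene and hemizygous for MHCrtTA) and of 3 MHCrtTA +dox controls (V327, V333 and V334, which carried the transactivator and received doxycycline but had no repeat transgene), so the 12 libraries formed 4 groups of 3. All mice were female and 10 weeks old and had been on doxycycline from postnatal day 1. For its study as a whole, the paper reports animals of both sexes. The transactivator was driven by the αMHC promoter, so the repeat RNA was directed to cardiomyocytes while the RNA came from whole chambers with all their cell types. Each library held between 116127966 and 160676189 counts, and 1 CPM (the usual count scaled to library size) corresponded to about 137 counts at the mean depth.

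Sodium-calcium exchangers of the Slc8 family move calcium out of the cell in return for sodium, driven by the sodium gradient, and can run in reverse when the membrane is depolarised. The exchange brings net positive charge into the cell, which is why it is studied in arrhythmia. Slc24 exchangers also use the potassium gradient, and the Atp2b pumps use ATP and are regulated by calmodulin. In cardiac muscle most calcium returns to the sarcoplasmic reticulum through the pump SERCA2 (Atp2a2), the exchanger encoded by Slc8a1 (NCX1) removes most of the rest, and the surface pumps have a smaller part.

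The libraries matched their labelled chambers. Myl2, the ventricular myosin light chain, measured 8505 to 10520 CPM in ventricles and 8.82 to 33.5 CPM in atria, and Myl7, its atrial counterpart, 2521 to 3309 CPM in atria and at most 55.9 CPM in ventricles. The control atria of V334 stood apart in red cell transcripts, whose markers summed to 2665 CPM against 310.5 to 494.0 CPM in the other 5 atrial libraries. The ventricles of V123 held the most Myl7, Sln and Myl4 of the ventricular libraries. Mitochondrially encoded transcripts made up 19.6% to 20.5% of counts in control ventricles, 15.3% to 18.4% in CUG960 ventricles and 10.9% to 12.2% in the atria of both genotypes, and leaving them out changed no call of a member. Results are given without these mice where a call changed.

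In CUG960 +dox mice the members called higher were of low abundance, and Slc8a1 was higher in each CUG960 ventricle than in each control without being called. Slc8a3 (NCX3) and Slc24a2 (NCKX2) were higher in atria and in ventricles, and Atp2b2 (PMCA2) was higher in atria. A gene was called when edgeR's quasi-likelihood test gave an adjusted P value under 0.05 and the fold change was at least 1.5. In atria 3 of 9 members were called higher, against 3.37% of the 17650 genes tested, and in ventricles 2 of 9, against 3.0% of 16909. No member was called lower in either tissue, by edgeR or by DESeq2, against 2.12% of all genes in atria and 1.76% in ventricles. An unadjusted P under 0.05 in either direction was found for 4 of 9 members in atria, beside 5337 of the 17650 genes tested, and for 4 of 9 in ventricles, beside 4342 of 16909. The 3 control mice and the 3 CUG960 +dox mice did not overlap for 5 of 9 members in atria and 4 of 9 in ventricles, where 35.7% and 31.2% of all genes tested did not overlap.

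**Figure D1:**
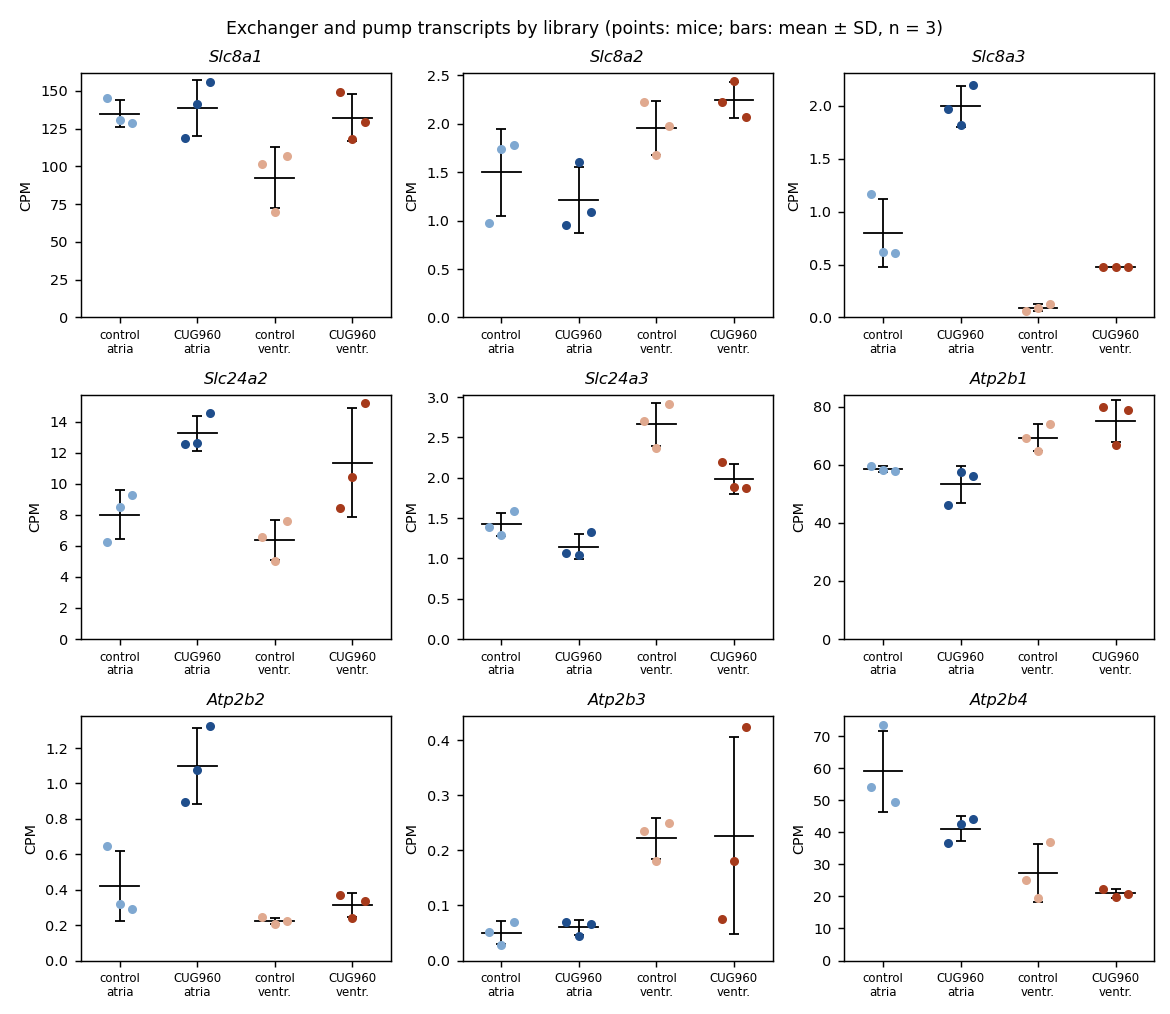
CPM of each of the 9 genes (vertical axes, linear, each from 0) in the 4 groups, with a point per mouse and black bars for mean ± SD (n = 3). For Slc8a3 the 3 CUG960 points lie above the 3 control points in both tissues, and for Slc8a1 they do so in ventricles but not in atria.

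The Slc8a3 and Slc24a2 start regions are printed because these genes were called higher in both tissues, and that of Slc8a1 because it is the main exchanger of the heart and was not called. The sequences are from RefSeq (build GRCm38.p6), run from 250 bases before to 50 bases after the annotated transcript start, and are written 5′ to 3′ on the strand of the gene. Capitals mark matches, on either strand, to GATAA (the core bound by GATA factors), CANNTG (the E-box) and TATAAA (the TATA box).

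Slc8a1, chr17:81738338-81738637, minus strand: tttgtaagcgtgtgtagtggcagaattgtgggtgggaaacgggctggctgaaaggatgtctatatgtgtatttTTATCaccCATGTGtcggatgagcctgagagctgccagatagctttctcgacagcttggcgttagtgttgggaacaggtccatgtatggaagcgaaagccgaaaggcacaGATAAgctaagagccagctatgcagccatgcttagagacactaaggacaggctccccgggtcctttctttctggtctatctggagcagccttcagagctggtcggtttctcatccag
Slc8a3, chr12:81333131-81333430, minus strand: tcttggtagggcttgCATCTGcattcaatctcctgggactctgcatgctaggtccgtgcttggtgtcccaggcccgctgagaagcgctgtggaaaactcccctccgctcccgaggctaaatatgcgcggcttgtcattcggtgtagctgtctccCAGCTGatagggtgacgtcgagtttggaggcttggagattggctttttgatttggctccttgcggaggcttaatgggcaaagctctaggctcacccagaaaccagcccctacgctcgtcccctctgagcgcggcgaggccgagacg
Slc24a2, upstream start, chr4:87230491-87230790, minus strand: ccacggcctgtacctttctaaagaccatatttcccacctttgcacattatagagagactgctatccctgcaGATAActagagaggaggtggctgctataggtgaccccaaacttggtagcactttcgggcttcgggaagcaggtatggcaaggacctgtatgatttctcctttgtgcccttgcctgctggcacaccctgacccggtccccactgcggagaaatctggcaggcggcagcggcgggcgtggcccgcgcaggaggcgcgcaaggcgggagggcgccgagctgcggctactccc
Slc24a2, downstream start, chr4:87227914-87228213, minus strand: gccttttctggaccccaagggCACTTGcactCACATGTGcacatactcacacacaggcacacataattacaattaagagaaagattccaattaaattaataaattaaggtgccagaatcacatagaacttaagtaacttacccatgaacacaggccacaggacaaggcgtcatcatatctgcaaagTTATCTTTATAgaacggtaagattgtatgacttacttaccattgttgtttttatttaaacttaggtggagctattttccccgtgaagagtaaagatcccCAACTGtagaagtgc

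The Slc8a1 window held 2 GATAA matches and 1 E-box, and the Slc8a3 window held 2 E-boxes and no GATAA match. For Slc24a2, the window at the upstream start held 1 GATAA match, and that at the downstream start held 1 GATAA match next to a TATAAA match, with 4 E-boxes, 2 of which overlap each other. Of the 32851 windows of this length in the RefSeq table, 25.4% held GATAA, 72.3% CANNTG and 13.6% TATAAA on either strand, so each of these matches is common among promoters. The MEF2 consensus, found in 0.557% of windows, was in none of them. RefSeq windows were matched for 8 of the 9 members, Atp2b3 being the exception.

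Slc8a1 spans chr17:81373105-81738377 (GRCm38, minus strand, GENCODE) and had the highest mean level per kilobase of merged exons among the members in each of the 4 groups. Per kilobase of the longest transcript, Atp2b1 was above it in all groups but CUG960 atria. In control atria it measured 145.2, 130.6 and 129.0 CPM in mice V327, V333 and V334, and in CUG960 atria 119.04, 141.4 and 155.9 CPM in V119, V120 and V123. The groups overlapped, with V119 below all controls and V123 above them, and the log2 fold change was 0.04 ± 0.10 (SE, edgeR, adjusted P value = 0.827). In control ventricles Slc8a1 measured 101.4, 69.6 and 106.9 CPM, and in CUG960 ventricles 149.0, 118.4 and 129.3 CPM. Each CUG960 ventricle was above each control ventricle, the lowest control being V333. The log2 fold change was 0.51 ± 0.15, a 1.43-fold higher level, and it passed neither the fold limit nor the test (adjusted P value = 0.0651). The test was passed, with the fold still under the limit, by DESeq2 (adjusted P value = 0.00462), by edgeR with no filter on low counts (0.00369) and by edgeR with all 12 libraries in a single fit (0.0364). Without control mouse V334 the ventricular difference was called (log2 fold change 0.63, adjusted P value = 0.0497), and it was smaller without CUG960 mouse V119 (0.42, adjusted P value = 0.176) and smallest without the low control V333 (0.35, adjusted P value = 0.0807). Dividing by total counts alone moved the median of all genes in this comparison from -0.01 to 0.10, and Slc8a1 was then called too (0.62, edgeR, adjusted P value = 0.0401).

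Slc8a1 RNA was also expressed against that of SERCA2, the pump with which its product shares the removal of calcium. RNA is not activity, which the paper measured in isolated atrial cardiomyocytes and reports as increased for the exchanger and decreased for SERCA. The ratio of the 2 levels per kilobase of exon was 0.395% ± 0.0234 in control atria and 0.468% ± 0.0325 in CUG960 atria (SD, n = 3 each). In ventricles it was 0.266% ± 0.0420 in controls and 0.416% ± 0.0493 in CUG960 +dox mice. The mice did not overlap in either tissue, and the difference on the log2 scale was 0.24 in atria and 0.65 in ventricles. The exact two-sided permutation test gave P = 0.1 in each tissue, which is the smallest value that 3 mice against 3 allow, and P = 0.1 after adjustment over the 6 such tests made here. Atp2a2 itself was lower in CUG960 atria by 0.21 ± 0.08 on the log2 scale, a difference that was not called (adjusted P value = 0.120), with 8901, 9220 and 10580 CPM against 11270, 10620 and 11270 CPM in controls. In ventricles it was 10220 to 10340 CPM in CUG960 +dox mice and 10300 to 11710 CPM in controls.

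Slc8a2 (NCX2), best known from brain, lies at chr7:16129826-16161063 and was a minor transcript. It measured 1.5 ± 0.452 CPM in control atria and 1.21 ± 0.343 CPM in CUG960 atria (SD, n = 3). In ventricles it measured 1.96 ± 0.276 CPM in controls and 2.25 ± 0.187 CPM in CUG960 +dox mice. The groups overlapped in both tissues, and neither difference passed the test (adjusted P values of 0.513 and 0.487).

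Slc8a3 (chr12:81197915-81333180, minus strand) encodes the exchanger known from skeletal muscle and brain, and it showed the largest ventricular change among the members. Control atria held 1.17, 0.620 and 0.606 CPM in V327, V333 and V334, and CUG960 atria held 1.97, 1.81 and 2.20 CPM in V119, V120 and V123. The groups did not overlap, and V327 was the control nearest to them. The level was 2.50-fold higher (log2 fold change 1.32 ± 0.26, edgeR, adjusted P value = 0.0148). That call was lost by a narrow margin without V119 (adjusted P value = 0.0505) or without V333 (0.0536), with log2 fold changes of 1.33 and 1.17.

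In control ventricles Slc8a3 was barely detected, at 0.0633, 0.0855 and 0.125 CPM from 7, 9 and 14 counts. In CUG960 ventricles it held 70, 66 and 60 counts, which is 0.480, 0.478 and 0.480 CPM. Every CUG960 ventricle thus lay well above every control ventricle, and the 3 CUG960 mice were close to each other. The level was 5.21-fold higher (log2 fold change 2.38 ± 0.35, edgeR, adjusted P value = 0.00346). Leaving out any 1 of the 6 mice kept the call, with log2 fold changes between 2.18 and 2.68. The highest CUG960 ventricle was still below the lowest control atrium. In bulk tissue, a difference in the number of cells that express a gene and a difference in RNA per cell cannot be told apart, here and in all results that follow.

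Because Slc8a3 is an atrial transcript, the ventricular libraries were examined for atrial muscle. Myl7, the atrial myosin light chain, measured 8.02, 4.98 and 19.3 CPM in control ventricles, and 0.192, 0.304 and 55.9 CPM in the CUG960 ventricles of V119, V120 and V123. Sln (sarcolipin) followed the same order of mice within the CUG960 group, with 0.213, 0.341 and 18.6 CPM. By both genes V123 was the highest of the 6 ventricular libraries and V119 and V120 the lowest. In V123 the ventricular Myl7 level was 2.22% of that in its own atria, and that share of its atrial Slc8a3 level is 0.0488 CPM, against 0.480 CPM measured. In V119 and V120 the same calculation gave 0.000114 and 0.000190 CPM. Without V123 the ventricular log2 fold change of Slc8a3 was 2.38 (adjusted P value = 0.0125). Of the other atrial markers, Myl4 had the same order (4.36, 6.13 and 86.3 CPM), Nppa (atrial natriuretic peptide) was highest in V120 (86.6, 224.4 and 151.5 CPM) and rose in CUG960 ventricles by 1.3 ± 0.31 on the log2 scale, and Bmp10 fell by 4.06 ± 0.50 (edgeR, adjusted P values of 0.0314 and 0.00161). The 5 markers summed to 77.6, 77.3 and 153.3 CPM in control ventricles and 91.4, 231.4 and 312.4 CPM in CUG960 ventricles, none was at 0 in any library, and Nppa was the most abundant. By this sum V119 and V120 lay above controls V327 and V333. The part of atrial tissue in the ventricular Slc8a3 values was not tested.

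**Figure D2:**
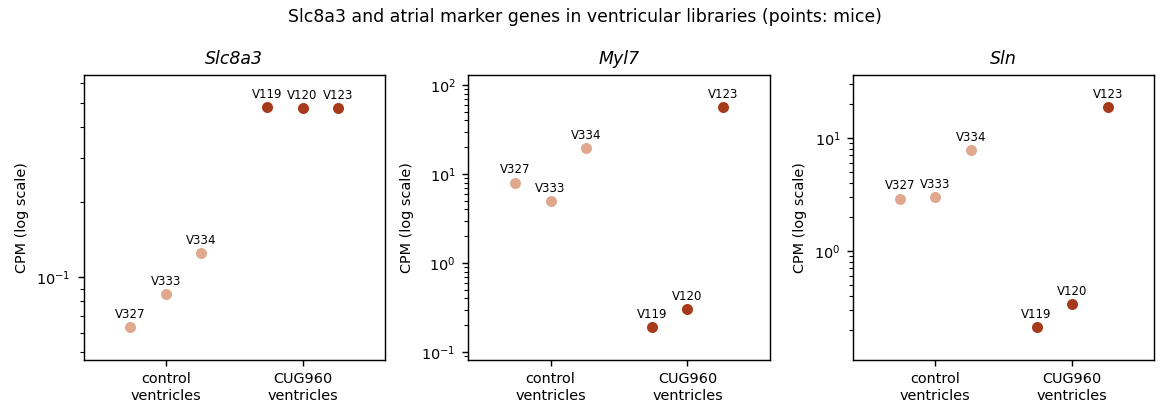
CPM (log axes) of Slc8a3 and of the atrial markers Myl7 and Sln in the 6 ventricular libraries, a point per mouse. Slc8a3 is near 0.48 CPM in each of V119, V120 and V123, and Myl7 ranges from 0.192 to 55.9 CPM over the same 3 libraries.

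Slc24a2 (chr4:86983124-87230477, minus strand) encodes NCKX2, an exchanger known from retinal cones and neurons. In atria it measured 6.25, 8.51 and 9.29 CPM in controls and 12.6, 12.6 and 14.6 CPM in CUG960 +dox mice. All CUG960 atria were above all control atria, and the level was 1.65-fold higher (log2 fold change 0.72 ± 0.15, edgeR, adjusted P value = 0.0152). In ventricles it measured 6.57, 5.03 and 7.61 CPM in V327, V333 and V334, and 8.44, 10.4 and 15.2 CPM in V119, V120 and V123. These groups did not overlap either, but the CUG960 ventricles spread over a wide range with V123 highest, and the level was 1.78-fold higher (log2 fold change 0.83 ± 0.22, adjusted P value = 0.0443). The ventricular call was lost without V120, V123, V327 or V333 (adjusted P values of 0.0947 to 0.112), and without V123 the log2 fold change was 0.56. The atrial call was lost without V327 only, where the log2 fold change of 0.57 fell under the fold limit.

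Because Slc24a2 is known from neurons, neuronal transcripts were read beside it. Stmn2, a neuronal regulator of microtubules, measured 1.97 to 4.20 CPM in control atria and 1.26 to 1.66 CPM in CUG960 atria. In ventricles it measured 9.74 to 10.4 CPM in controls and 6.23 to 8.68 CPM in CUG960 +dox mice. Elavl4, a neuronal RNA-binding protein, had the other direction in the mean, with 0.212 ± 0.0431 and 0.331 ± 0.127 CPM in control and CUG960 atria and 0.103 ± 0.0606 and 0.168 ± 0.0185 CPM in ventricles. Prph (peripherin) measured 0.290 ± 0.0176 and 0.256 ± 0.0899 CPM in atria and 0.171 ± 0.0250 and 0.0779 ± 0.00979 CPM in ventricles. None of these 3 was called by edgeR in either tissue, and DESeq2 called 1 neuronal marker lower in atria and none in ventricles. Snap25 and Th were each at or under 0.110 CPM in all 12 libraries. The part of neurons in the Slc24a2 values was not tested.

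Slc24a3 (chr2:145167754-145642166) encodes NCKX3, which is found in brain and smooth muscle, and it lay on the other side of 0 from Slc24a2. In ventricles it measured 2.70, 2.38 and 2.91 CPM in controls and 2.20, 1.88 and 1.87 CPM in CUG960 +dox mice. The groups did not overlap, the CUG960 mice being lower, but the log2 fold change of -0.42 ± 0.15 was not called (edgeR, adjusted P value = 0.114). In atria it measured 1.39, 1.29 and 1.58 CPM in controls and 1.07, 1.04 and 1.32 CPM in CUG960 +dox mice, with V123 inside the control range (log2 fold change -0.31 ± 0.17, adjusted P value = 0.255). The 5 smooth muscle and pericyte markers summed to 666.0 to 702.9 CPM in control ventricles and 533.4 to 571.1 CPM in CUG960 ventricles, with none at 0. Rgs5 made up most of the sum, at 488.6 ± 18.8 and 349.3 ± 34.2 CPM. Of the 5, 1 was called by edgeR, Myh11, which fell by 0.65 ± 0.17 on the log2 scale (adjusted P value = 0.0393), and Acta2 measured 120.3 ± 17.7 and 142.2 ± 52.4 CPM. Their part in the Slc24a3 values was not tested.

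Among the pumps, Atp2b1 (PMCA1, chr10:98914406-99026143), present in most tissues, was the steadiest. It measured 59.5, 58.1 and 57.8 CPM in control atria and 46.1, 57.5 and 56.1 CPM in CUG960 atria, all 3 under the controls with V119 the lowest. The log2 fold change was -0.14 ± 0.08 (edgeR, adjusted P value = 0.320). In ventricles it measured 69.3, 64.7 and 73.9 CPM in controls and 79.7, 66.8 and 78.7 CPM in CUG960 +dox mice, with V120 inside the control range (log2 fold change 0.12 ± 0.09, adjusted P value = 0.464).

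Atp2b2 (PMCA2, chr6:113743831-114042613, minus strand), a pump best known from the inner ear and cerebellum, rose in atria from a low level. Control atria held 0.648, 0.322 and 0.293 CPM and CUG960 atria 0.894, 1.07 and 1.32 CPM. The groups did not overlap, with V327 the highest control, and the level was 2.61-fold higher (log2 fold change 1.38 ± 0.33, edgeR, adjusted P value = 0.0271). With 46 to 180 counts per atrial library, this call depended on the mice present: it held only when V327 was the mouse left out, and the adjusted P value was 0.0551 to 0.0904 without any other mouse. In ventricles Atp2b2 measured 0.244, 0.209 and 0.223 CPM in controls and 0.370, 0.239 and 0.336 CPM in CUG960 +dox mice, from 22 to 54 counts, and the difference was not called (log2 fold change 0.48 ± 0.31, adjusted P value = 0.376).

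Atp2b3 (PMCA3, chrX:73503086-73571005) was the rarest member in atria, with 5 to 11 counts in each atrial library. In ventricles it held 26, 19 and 28 counts in controls and 11, 25 and 53 counts in CUG960 +dox mice, the widest spread of any member relative to its level. Neither tissue gave a call (edgeR, adjusted P values of 0.758 and 0.988), and the sign of the estimate turned with the mouse left out.

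Atp2b4 (PMCA4, chr1:133699457-133801041, minus strand) encodes a pump that in cardiomyocytes has been tied to signalling through nitric oxide synthase. In atria it measured 54.2, 73.4 and 49.4 CPM in controls and 36.8, 42.5 and 44.1 CPM in CUG960 +dox mice. Every CUG960 atrium was below every control, by 0.52 ± 0.14 on the log2 scale. The adjusted P value of 0.0450 (edgeR) was under the threshold, but the 1.44-fold difference was under the fold limit, so it was not called. Without any 1 of V119, V120, V123, V327 or V333 the adjusted P value exceeded 0.05. The estimate was smallest without V333 (log2 fold change -0.33, adjusted P value = 0.0800), and without V334 the gene was called lower (log2 fold change -0.63, adjusted P value = 0.0283). In ventricles it measured 25.2, 19.5 and 37.1 CPM in controls and 22.4, 19.7 and 20.9 CPM in CUG960 +dox mice, with overlap (log2 fold change -0.38 ± 0.19, adjusted P value = 0.261). That estimate rested on the high control V334, without which it was -0.09 (adjusted P value = 0.726), and without V333 it was -0.57 (0.0634).

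Endothelial markers were read beside Atp2b4. The 5 endothelial markers summed to 547.8, 572.2 and 478.9 CPM in control atria and 367.6, 419.9 and 378.9 CPM in CUG960 atria, and in ventricles to 671.8 to 804.1 CPM and 535.3 to 576.3 CPM. Pecam1, the most abundant of them in atria, fell there by 0.71 ± 0.10 on the log2 scale (edgeR, adjusted P value = 0.00431) and was the 1 of 5 that was called in atria. None of the 5 was called in ventricles (4 at an unadjusted P under 0.05, and none by DESeq2), and none was at 0 in any library. Their part in the Atp2b4 values was not tested.

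**Figure D3:**
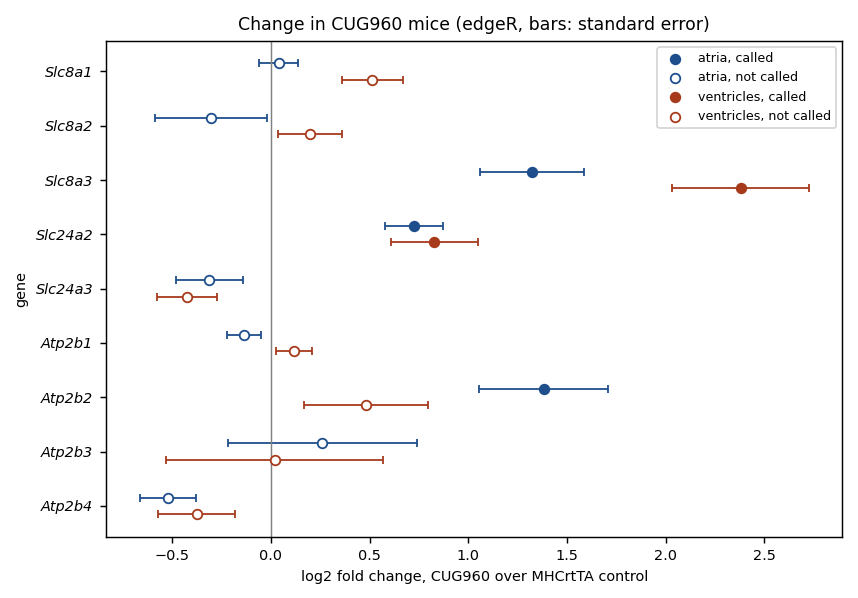
Log2 fold change of CUG960 over MHCrtTA control for the 9 genes in atria (blue) and ventricles (red), with standard errors from edgeR, filled where called. The filled points are Slc8a3 and Slc24a2 in both tissues and Atp2b2 in atria.

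Whether the response differed between tissues was tested as an interaction term in a fit of the 12 libraries. None of 9 members passed (edgeR, adjusted P value under 0.05), against 1.38% of 18327 genes, and DESeq2 called none either. Slc8a1 and Slc8a3 were the 2 of 9 members with an unadjusted P under 0.05, beside 2253 of the 18327 genes. Their estimates were larger in ventricles, by 0.47 ± 0.21 on the log2 scale for Slc8a1 and 1.06 ± 0.41 for Slc8a3, with adjusted P values of 0.381 and 0.313. With 1 mouse left out these differences were 0.27 (without V119) to 0.62 (without V334) for Slc8a1, and 0.47 (without V327) to 1.52 (without V334) for Slc8a3. For Atp2b2, called in atria only, the interaction was 0.90 ± 0.45 (adjusted P value = 0.460), so its difference between tissues was not established.

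Chamber differences were larger than the genotype differences for several members. In control mice 2 of 9 members were called higher in atria, against 18.3% of 17451 genes, and 2 of 9 lower, against 16.6%. In CUG960 +dox mice 3 of 9 were called higher in atria, against 17.2% of 17559 genes, and 3 of 9 lower, against 16.4%. The CUG960 comparison shares no library with the control one, but both share libraries with the genotype comparisons above, so the values stand side by side and are not added to each other. Slc8a3 was 8.61-fold higher in atria than in ventricles in controls (log2 fold change 3.11 ± 0.40) and 4.12-fold higher in CUG960 +dox mice (2.04 ± 0.17), with adjusted P values of 0.000279 and 1.34e-05 by edgeR. Atp2b4 was higher in atria by 1.11 ± 0.23 in controls and 0.96 ± 0.09 in CUG960 +dox mice (edgeR, adjusted P values of 0.00381 and 2.51e-05).

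On the ventricular side were Slc24a3, lower in atria by 0.91 ± 0.15 and 0.81 ± 0.17 on the log2 scale in control and CUG960 +dox mice, and Atp2b3, lower by 2.14 ± 0.42 and 1.90 ± 0.62. The Atp2b3 call in CUG960 +dox mice was lost without V120 or V123 (log2 fold changes -1.84 and -1.16, edgeR, adjusted P values of 0.124 and 0.170). Slc8a2 was called lower in CUG960 atria (log2 fold change -0.90 ± 0.21) and not in control atria (-0.39 ± 0.25), and Atp2b2 was called higher in CUG960 atria (1.78 ± 0.26) and not in control atria (0.89 ± 0.37). The interaction test above, which is the test of these contrasts against each other, did not pass for either gene. Slc8a1 differed between control chambers by 0.54 ± 0.15 (adjusted P value = 0.0138), a 1.45-fold difference under the fold limit, and between CUG960 chambers by 0.06 ± 0.12 (adjusted P value = 0.704). Without V334 the control difference was called (0.68, edgeR, adjusted P value = 0.00988). Over the 3 control mice left out in turn it ranged from 0.39 to 0.68, with adjusted P values up to 0.0718. The test was thus not passed in every such fit. Atp2b1 was lower in atria by 0.25 ± 0.07 in controls and by 0.51 ± 0.10 in CUG960 +dox mice, both under the fold limit, and the latter was called without V120 (-0.63). With a mouse left out the Atp2b1 estimate ranged from -0.63 to -0.37 in CUG960 +dox mice and from -0.29 to -0.19 in controls. The adjusted P value then reached 0.0244 in CUG960 +dox mice and 0.0873 in controls (edgeR), so the control test was not always passed. The chamber directions are relative to the bulk of genes: dividing by total counts alone moved the median of all genes from 0.03 to 0.49 in controls and from 0.01 to 0.40 in CUG960 +dox mice. Under that scaling the control estimates of Slc8a2 and Atp2b1 changed sign (0.07 and 0.20), and Slc24a3 was no longer called in either genotype. Slc8a2 and Atp2b3 then lost their calls in CUG960 +dox mice, Slc24a2 was called higher in atria in both genotypes, and Slc8a1 and Atp2b2 were called higher in control atria.

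**Figure D4:**
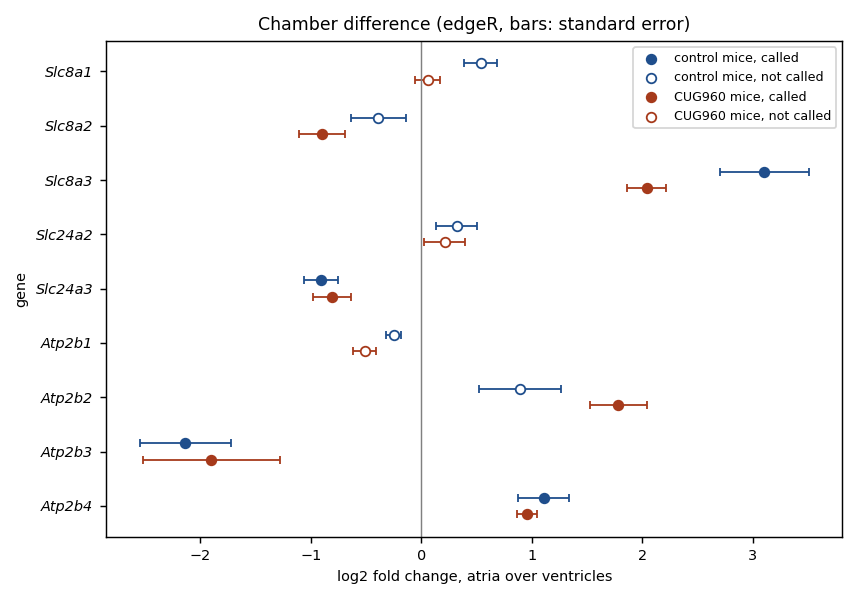
Log2 fold change of atria over ventricles for the 9 genes in control mice (blue) and CUG960 mice (red), with standard errors from edgeR, filled where called. Slc8a3 and Atp2b4 lie to the right and Slc24a3 and Atp2b3 to the left in both genotypes.

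Markers of the sinoatrial node were read because calcium exchange has a part in pacemaking. Hcn4, the pacemaker channel, rose in CUG960 atria from 2.16, 1.66 and 0.644 CPM to 8.12, 8.31 and 9.71 CPM (log2 fold change 2.55 ± 0.36, edgeR, adjusted P value = 0.00361), in the same libraries in which Slc8a3 and Atp2b2 were higher. The node's transcription factors were not higher with it: Shox2 measured 0.778 to 3.08 CPM in control atria and 0.559 to 2.82 CPM in CUG960 atria, Tbx3 2.86 to 5.41 CPM and 2.15 to 3.2 CPM, and Isl1 was at or under 0.0720 CPM in every library. Of the 4 markers, 3 were tested in atria. By edgeR 1 was called higher and none lower, and by DESeq2 1 higher and 1 lower. They summed to 4.29 to 10.7 CPM in control atria and 10.8 to 13.8 CPM in CUG960 atria. Of the 4, only Hcn4 was higher in each CUG960 atrium than in each control atrium, so the higher sum reflects Hcn4. Hcn4 was also higher in each CUG960 ventricle (9.18 to 21.7 CPM) than in each control ventricle (4.6 to 8.26 CPM), without a call by edgeR or DESeq2. In both genotypes its mean was higher in ventricles than in atria. Whether node tissue had a part in the members' values was not tested.

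Markers of some other cell types were called lower by edgeR in CUG960 +dox mice. In atria these were 1 of 4 tested ventricular muscle markers (Hey2, log2 fold change -0.67 ± 0.19) and 1 of 2 tested skeletal muscle markers (Ckm, which the heart also expresses, -0.60 ± 0.08). In ventricles they were 2 of 3 adipocyte markers (Plin1, -1.86 ± 0.33, and Cfd, -1.92 ± 0.30). The part of these cells in the members' values was not tested. Beside these and the marker counts above, edgeR called 2.12% of all genes tested lower and 3.37% higher in atria, and 1.76% and 3.0% in ventricles.

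Levels of different genes were compared as CPM per kilobase of merged exons. In control atria the order was Slc8a1 (7.18), Atp2b4 (4.82), Atp2b1 (3.84), Slc24a2 (0.656), Slc24a3 (0.311), Slc8a2 (0.285), Slc8a3 (0.150), Atp2b2 (0.0334) and Atp2b3 (0.0105). Slc24a3 overlapped Slc8a2, and Slc8a2 overlapped Slc8a3, among mice, while the other neighbours did not overlap. In CUG960 atria Atp2b1 (3.5) and Atp2b4 (3.36) overlapped each other, and Slc8a3 (0.374) stood above Slc24a3 (0.251) and Slc8a2 (0.231), which overlapped.

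In control ventricles Slc8a1 (4.93) and Atp2b1 (4.56) overlapped, followed by Atp2b4 (2.23), and Slc8a3 (0.0171) was last, overlapping Atp2b2 (0.0179). In CUG960 ventricles Slc8a1 (7.03) lay above Atp2b1 (4.93) without overlap, and Slc8a3 (0.0899) lay above Atp2b3 (0.0470) and Atp2b2 (0.0250). The place of Atp2b1 depends on its length: its merged exons span 15218 bases but its longest annotated transcript 7130 bases. Per kilobase of the longest transcript, Atp2b1 (8.20) was above Slc8a1 (7.31) and Atp2b4 (5.03) in control atria, and just under Slc8a1 in CUG960 atria (7.46 against 7.52). On that scale it was above Slc8a1 in control ventricles (9.72 against 5.02) and in CUG960 ventricles (10.5 against 7.16), so the ventricular order given above holds for merged exons only.

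Slc8a1 made up most of the Slc8 family everywhere, with 94.3% ± 0.660 of the summed level per kilobase in control atria and 92.4% ± 0.575 in CUG960 atria (SD, n = 3). Slc8a3 accounted for 1.94% ± 0.650 and 4.72% ± 0.607 of it in control and CUG960 atria, and for 0.329% ± 0.108 and 1.20% ± 0.123 in ventricles. The family sum was 7.61 ± 0.448 and 7.98 ± 1.03 CPM per kilobase in control and CUG960 atria, and 5.32 ± 1.12 and 7.55 ± 0.809 in ventricles. Slc8a1 thus made up nearly all of each sum, and Slc8a3 remained a small part of it in CUG960 ventricles.

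Within the pump family the mean share of Atp2b1 was higher, and that of Atp2b4 lower, in CUG960 +dox mice. Atp2b1 made up 44.5% ± 5.07 of the summed Atp2b level in control atria and 50.3% ± 1.05 in CUG960 atria, and 67.1% ± 5.58 and 73.4% ± 0.774 in ventricles. Atp2b4 made up 55.0% ± 5.21 and 48.3% ± 0.951 in atria, and 31.9% ± 5.61 and 25.5% ± 1.10 in ventricles. The control and CUG960 mice did not overlap in any of these 4 comparisons. Each exact two-sided permutation test gave P = 0.1, the smallest possible, also after adjustment over 6 tests. Atp2b1 and Atp2b4 together nearly fill the sum, so a higher share of Atp2b1 is a lower share of Atp2b4. The Atp2b4 comparisons therefore repeat those of Atp2b1 and are not separate results. Leaving out V333 reduced the atrial difference of Atp2b1 from 5.71 to 2.82 percentage points, and leaving out V334 reduced the ventricular one from 6.28 to 3.26. The Atp2b4 differences, which mirror these, went from -6.63 to -3.64 in atria without V333 and from -6.41 to -3.36 in ventricles without V334. All these shares depend on the length used, here merged exons. Per kilobase of the longest transcript, Atp2b1 was above Atp2b4 in control atria (8.20 against 5.03), where merged exons gave the other order. On that scale they measured 7.46 and 3.51 in CUG960 atria. In ventricles they measured 9.72 and 2.32 in controls and 10.5 and 1.79 in CUG960 +dox mice.

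**Figure D5:**
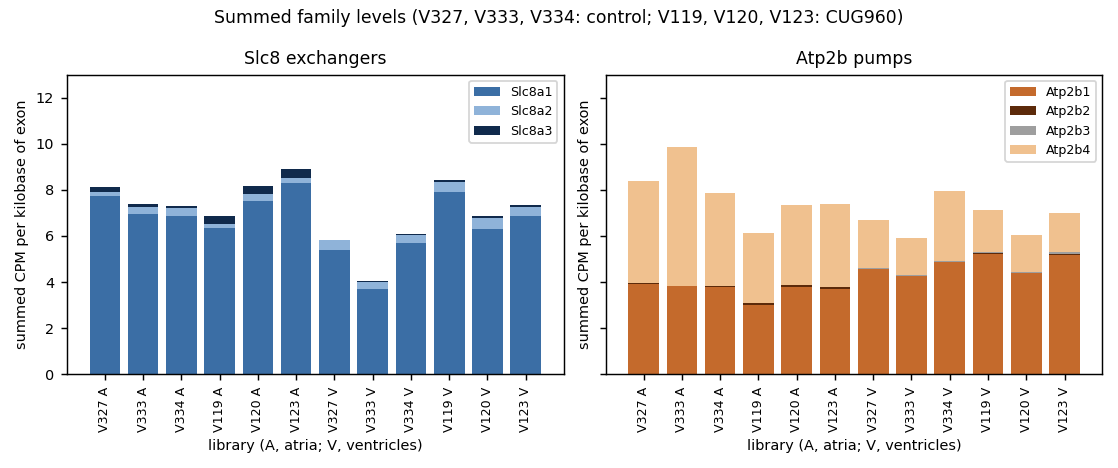
Summed CPM per kilobase of merged exons in each of the 12 libraries for the Slc8 exchangers (left) and the Atp2b pumps (right), stacked by gene. Slc8a1 fills 91.7% to 95.0% of each Slc8 bar, and Atp2b1 and Atp2b4 together nearly fill each Atp2b bar.

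Genes whose log2 CPM followed a member most closely over the 12 libraries are given as a description. All points share the 4 groups and the same libraries, and 13059 genes were searched. For Slc8a1 these were Ctnna3 (Pearson's r = 0.969), Fam120c (0.949) and C130083M11Rik (0.941), and with the group means subtracted Insr (0.980), Sgcd (0.979) and Nr2c2 (0.975). For Slc24a2 they were Slc25a44 (0.904), Depdc5 (0.903) and Adap1 (0.893), for Slc24a3 Mylk (0.984), Dusp19 (0.982) and Pcdh19 (0.981), and for Slc8a2 Rab31 (0.928), Ddx21 (0.919) and Mxd4 (0.910). For Atp2b1 they were Arhgef37 (0.960), Rfk (0.959) and Gspt1 (0.959), and for Atp2b4 Dnmbp (0.985), Entpd1 (0.984) and Usp6nl (0.983). Slc8a3, Atp2b2 and Atp2b3 were left out because their mean was under 1 CPM.

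The transporters next to these families gave no call by genotype. Of 9 relatives, among them the mitochondrial exchanger Slc8b1 and the pumps of internal stores, none of 9 tested in atria and none of 7 in ventricles was called by edgeR or DESeq2 (3 and 2 at an unadjusted P under 0.05). Their median log2 fold changes were -0.01 and 0.10, beside medians of -0.01 over all genes in both tissues. Of all genes tested, edgeR called 3.37% higher and 2.12% lower in atria, and 3.0% and 1.76% in ventricles. After Atp2a2 the most abundant relative was Atp2c1, a pump of the Golgi, at 51.3 ± 1.47 CPM in control atria and 57.4 ± 1.32 CPM in CUG960 atria (adjusted P value = 0.0793 by edgeR). Slc8b1 measured 11.3 ± 1.09 and 11.2 ± 0.633 CPM in the same groups.

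Among 18 partners and regulators of the exchangers and pumps, 1 of 18 was called lower in atria and none was called higher (13 at an unadjusted P under 0.05, and the same counts by DESeq2). Over all genes tested in atria, edgeR called 2.12% lower and 3.37% higher, and 5337 of 17650 had an unadjusted P under 0.05. The called partner was Rcan1, an inhibitor of calcineurin, with 65.7, 71.1 and 105.1 CPM in controls and 50.4, 55.0 and 47.2 CPM in CUG960 +dox mice (log2 fold change -0.67 ± 0.16, edgeR, adjusted P value = 0.0316). None of the 18 was called in ventricles (11 at an unadjusted P under 0.05, and none by DESeq2). Over all genes tested in ventricles, edgeR called 1.76% lower and 3.0% higher, and 4342 of 16909 had an unadjusted P under 0.05.

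Of 28 genes of calcium entry and sarcoplasmic reticulum cycling, 3 were called higher in atria and none lower (19 at an unadjusted P under 0.05, and the same calls in number by DESeq2). Of all genes tested in atria, edgeR called 3.37% higher and 2.12% lower, and 5337 of 17650 had an unadjusted P under 0.05. Cacna1d, an L-type calcium channel of atria and pacemaker tissue, measured 17.3, 13.8 and 10.2 CPM in controls and 27.7, 28.7 and 32.3 CPM in CUG960 atria (log2 fold change 1.10 ± 0.17, adjusted P value = 0.00500 by edgeR). Cacna1h, a T-type channel, rose by 1.09 ± 0.24, and Fkbp1b, which binds the ryanodine receptor, by 0.71 ± 0.16 on the log2 scale. In ventricles 1 of the 28 was called, the release channel Ryr2, which fell from 869.9, 650.4 and 945.2 CPM to 539.1, 470.1 and 535.9 CPM (log2 fold change -0.67 ± 0.13, edgeR, adjusted P value = 0.0148). DESeq2 called 1 of the 28 higher and 1 lower in ventricles. Of all genes tested there, edgeR called 3.0% higher and 1.76% lower. The list medians were 0.13 in atria and 0.03 in ventricles. Ryr2 was also lower in CUG960 atria (453.2 to 669.3 CPM) than in control atria (758.0 to 814.5 CPM), without a call. Cacna1d was also higher in CUG960 ventricles (3.46 to 4.13 CPM) than in control ventricles (1.66 to 2.97 CPM), without a call by edgeR. None of the 28 passed the interaction test by edgeR, against 1.38% of all genes, and 3 did by DESeq2.

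Sodium sets the driving force of the exchangers. Of 12 genes of sodium entry and removal none was called in atria by edgeR or DESeq2 (4 at an unadjusted P under 0.05), and 2 were called lower in ventricles and none higher. These were the sodium channels Scn10a, which fell from 3.25, 3.52 and 2.66 CPM to 0.789, 0.790 and 0.496 CPM (log2 fold change -2.18 ± 0.22, edgeR, adjusted P value = 0.000505), and Scn4a (-0.78 ± 0.12, adjusted P value = 0.00478). The list medians were -0.06 and 0.03. Beside this list and the next, edgeR called 3.37% of all genes tested higher and 2.12% lower in atria, and 3.0% and 1.76% in ventricles. Of 8 genes of stretch, hypertrophy and the fetal program, Xirp2 fell in atria (log2 fold change -0.99 ± 0.09), and Nppa and Ankrd1 rose in ventricles (1.3 ± 0.31 and 1.16 ± 0.12), with list medians of -0.33 and 0.13. In ventricles DESeq2 called 2 of the 8 higher and 1 lower, where edgeR called 2 higher and none lower. Acta1, skeletal actin, measured 767.1 ± 111.1 CPM in control ventricles and 378.8 ± 163.4 CPM in CUG960 ventricles (log2 fold change -1.02 ± 0.29, edgeR, adjusted P value = 0.0543), and is named after its values were seen.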

How the data were processed

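The RNA-Seq data of 6 mice, atria and ventricles apart, were analysed from the authors' deposited table of RSEM expected counts per gene symbol, already whole numbers. The submitters' processing notes name RSEM 1.3.1 and the build mm10 (GRCm38). Whether counting used strand is not given in the sources used here. All 12 value columns matched a sample label. Counts were tested with edgeR 4.0.16 (R 4.3.3; filterByExpr, TMM, quasi-likelihood F test, Benjamini-Hochberg adjustment over all genes tested) in separate fits per comparison, called where the adjusted P was under 0.05 and the fold change reached 1.5 (no fold limit for the interaction). CPM used TMM factors over all 12 libraries, and exon lengths came from GENCODE M21. SE is the absolute log2 fold change divided by the square root of F. All 9 members passed the filter in every comparison. DESeq2 1.42.0, other scalings and filters, and leaving out each mouse were the alternatives. The tests were also run on simulated counts, drawn as independent libraries with a fixed spread and with changes only in genes above a count minimum. That run covers neither rarer genes nor the pairing of chambers by mouse.

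Members and gene lists were chosen with earlier results of these data known. All 9 members are reported, and genes of the 5 pathway lists are named when called in a genotype comparison or, where none was, by abundance. Cell type markers are named beside the results. Symbols listed more than once (92 repeats) were kept apart. Atria and ventricles bearing a mouse's number come from that animal, so the numbers pair them: deviations from group means correlated at 0.0522 to 0.303 within a mouse and at -0.282 to 0.122 between mice. The main chamber and interaction fits left this pairing out and treated atria and ventricles of a mouse as separate. Mouse as a replicate block was an alternative. Replicates of a group are separate mice. With 3 mice per group, P values set a difference against the spread between these mice. In edgeR that spread is estimated in part from all genes tested. Exons of a member shared at most 8 bases with another gene in the table, and Slc8a1 shares 296 bases with an antisense gene that the table does not list. Some marker genes, with the results that need them, are not reported here.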

Additional observations from a re-analysis of the deposited data

How the results depend on the processing

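Among the members' estimates under other scalings, filters and fits, with the fold limit of 1.5 kept and all mice present, 340 kept their direction and their side of the threshold, 4 lost a call, 5 gained one and 2 reversed. Both reversals were chamber differences in control mice under total counts (Slc8a2 0.068, Atp2b1 0.20). Requiring a log2 fold change of 1.5 left 0 members called in atria, 1 in ventricles, 2 between control chambers and 3 between CUG960 chambers. Requiring at least 10 counts in every library left 1 in ventricles and 2 between control chambers, since Slc8a3 and Atp2b3 were then no longer tested where their counts were under 10. Atp2b3, with 7 to 10 counts in CUG960 atria, was also not tested between CUG960 chambers, where it had been called. Over the 6 left-out mice, 1 to 3 members were called in atria and 1 to 3 in ventricles. With mouse as a replicate block the counts were 4 members between control chambers, 6 between CUG960 chambers and 0 for the interaction, as without the block.

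Leaving out a mouse reversed 11 of the members' estimates, none of them called. Slc8a1 ranged from -0.056 to 0.14 in atria and from -0.042 to 0.25 between CUG960 chambers, and Atp2b3 from -0.029 to 0.57 in atria and from -0.79 to 0.44 in ventricles. The interaction ranged from -0.27 to 0.095 for Slc24a2, -0.045 to 0.24 for Slc24a3, -0.29 to 0.98 for Atp2b3 and -0.55 to 0.22 for Atp2b4. The cause of these changes was not tested. Counts of 5 to 11 limit what can be said of Atp2b3 in atria.

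Over all genes, calls with no fold limit numbered 2573 in atria, 1680 in ventricles, 9726 between control chambers and 9517 between CUG960 chambers, and a log2 limit of 1.5 left 216, 199, 2233 and 2200. The interaction gave 253 calls by edgeR, 652 by DESeq2 and 74 to 131 without a mouse. Under total counts the share of higher calls was 82.7% against 52.4% between control chambers, 79.7% against 51.2% between CUG960 chambers, 80.6% against 63.1% in ventricles and 34.5% against 49.8% for the interaction.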
